A study of Homo sapiens with 6 samples.

Results

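The clade B serpins are a family of mostly intracellular protease inhibitors, and 10 of their 13 human genes are described here in fluvastatin sensitive and fluvastatin resistant breast epithelial cells. The 10 genes (SERPINB1 to SERPINB8, SERPINB10 and SERPINB13) were taken by gene symbol from the deposited array table, which holds 135750 probe sets for transcripts. Each of the 10 symbols is carried by 1 probe set, so the choice of the probe set with the highest mean left no alternative. SERPINB9, SERPINB11 and SERPINB12, the other 3 genes of the clade, are given for comparison. The family was proposed with results of the same arrays known, SERPINB2 among them, so the counts and changes below describe the family and are not independent evidence about it.

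MCF10.AT1, the preneoplastic stage of the human breast epithelial MCF10A series, is labelled fluvastatin sensitive, and its source label calls the cells untreated. MCF10.AT1-R is the fluvastatin resistant line that was selected from it with doses rising from 1 to 20 µM. Fluvastatin is a statin, a drug that blocks HMG-CoA reductase in the synthesis of cholesterol. The treatment text, which describes these fluvastatin doses, is the same for the samples of both lines, so whether MCF10.AT1-R was in fluvastatin when RNA was taken, and whether it is 1 clone, is not given in the sources used here. Total RNA was measured on Clariom D arrays, with 3 biological replicates per line. Arrays A01 to A03 hold MCF10.AT1, and B02 to B04 hold MCF10.AT1-R. The letters of the array names follow the lines, and what the letters stand for is not given in the sources used here.

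Array A03 was removed by the study as an outlier and is shown apart. Its correlation with the other arrays lay between 0.780 and 0.795, against 0.967 to 0.977 among the other 5, and its hybridization controls averaged 5.99 on the log2 scale against 10.35 to 11.33. All values below are log2 values made by the RMA method, and the lines were compared with limma over A01 and A02 against B02, B03 and B04. A gene was called within background on an array when it did not exceed the 95th percentile of the 612 negative control probe sets of that array, which lay between 2.88 and 3.15. The 8 markers of mammary epithelium that were looked up (KRT5, KRT14, KRT17, TP63, EPCAM, CDH1, ITGA6 and ITGB4) were above background on all 5 arrays. These markers are shared with other epithelial cells and are not particular to the breast. Of 9 white blood cell markers, PTPRC, which defines these cells, and LYZ were within background on all 5, ITGAM exceeded it on 1 array, and the other 6 (CD68, CD14, CSF1R, CD3E, CD79A and MPO) were above it on all 5. White blood cell markers thus exceeded the limit in cultured epithelial cells, so exceeding it does not by itself show that a gene is expressed.

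Serpins present a flexible loop as bait. A protease that cuts the loop is dragged across the serpin as it refolds and is left trapped and inactive. Clade B members lack a classical secretion signal, and many are made by stratified squamous epithelia, where they restrain cathepsins, plasminogen activators and leukocyte proteases. In the breast the family is best known for SERPINB5 (maspin), which was found as a gene active in normal mammary epithelium and lost in many carcinomas. In the human genome the family lies in a large cluster on chromosome 18 and a small one on chromosome 6.

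Promoter sequences are shown for the 5 chromosome 18 members whose MCF10.AT1-R arrays all lay above the MCF10.AT1 arrays, so they were picked by these values. SERPINB1 on chromosome 6 was also higher on every MCF10.AT1-R array, and its promoter is not shown. Each run is the 250 bases before the annotated start, 5′ to 3′ on the strand of the gene, from RefSeq on GRCh38.p14. Capitals mark the AP-1 motif TGANTCA, which reads the same on both strands, and the TATA box TATAAA on the strand of the gene. For SERPINB7, which has 3 annotated promoters, the one nearest to the gene's 3′ end is shown.
SERPINB2 (chr18:63887455-63887704, plus strand): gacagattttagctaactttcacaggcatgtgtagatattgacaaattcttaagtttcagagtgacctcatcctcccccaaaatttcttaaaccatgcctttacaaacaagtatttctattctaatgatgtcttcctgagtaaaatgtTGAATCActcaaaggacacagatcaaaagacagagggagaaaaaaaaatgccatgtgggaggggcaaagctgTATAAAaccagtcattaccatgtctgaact
SERPINB13 (chr18:63587093-63587342, plus strand): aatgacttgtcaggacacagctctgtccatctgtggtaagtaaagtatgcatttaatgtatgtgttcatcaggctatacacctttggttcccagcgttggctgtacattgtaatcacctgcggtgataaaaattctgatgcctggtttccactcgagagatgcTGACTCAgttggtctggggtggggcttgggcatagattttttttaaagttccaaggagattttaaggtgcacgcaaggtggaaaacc
SERPINB7 (chr18:63777531-63777780, plus strand): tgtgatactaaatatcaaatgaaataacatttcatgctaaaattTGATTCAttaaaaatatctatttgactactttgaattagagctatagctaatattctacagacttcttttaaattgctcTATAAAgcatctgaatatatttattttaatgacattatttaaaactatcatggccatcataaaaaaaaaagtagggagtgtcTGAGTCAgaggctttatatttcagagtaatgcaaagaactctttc
SERPINB5 (chr18:63476708-63476957, plus strand): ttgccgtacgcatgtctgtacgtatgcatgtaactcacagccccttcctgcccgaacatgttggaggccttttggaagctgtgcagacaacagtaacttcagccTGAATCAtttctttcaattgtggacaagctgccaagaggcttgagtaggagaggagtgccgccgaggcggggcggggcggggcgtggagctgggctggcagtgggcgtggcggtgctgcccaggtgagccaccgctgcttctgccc
SERPINB8 (chr18:63969831-63970080, plus strand): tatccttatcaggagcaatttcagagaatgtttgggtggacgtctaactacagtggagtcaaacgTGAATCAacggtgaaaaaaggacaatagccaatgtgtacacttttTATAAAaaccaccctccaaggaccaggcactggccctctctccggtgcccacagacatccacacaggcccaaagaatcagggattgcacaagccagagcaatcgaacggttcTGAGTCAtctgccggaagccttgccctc

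The AP-1 motif begins at -102 in SERPINB2, -87 in SERPINB13, -206 and -45 in SERPINB7, -146 in SERPINB5, and -185 and -28 in SERPINB8, counted from the start. AP-1 is the pair of FOS and JUN proteins that mitogen and stress signals switch on. The letters TATAAA begin at -30 in SERPINB2, -127 in SERPINB7 and -140 in SERPINB8, and their place alone does not show a working TATA box. Promoters of 9 of the 10 members were in the table, 14 in all, and 6 of the 14 held the AP-1 motif. These belong to the 5 genes shown, with 2 from SERPINB7, whose remaining promoter holds none. It was in none of the promoters listed for SERPINB1, SERPINB3, SERPINB4 and SERPINB6. Among these genes, SERPINB1 was also higher on every MCF10.AT1-R array and passed the FDR threshold used below. SERPINB12, a gene within background on all 5 arrays, held the motif in 1 of its 2 promoters. Of all 35116 promoters of the same length, 6.57% held the AP-1 motif and 6.8% the TATA box. These are matches of letters and do not show that a factor binds there.

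For 6 of the 10 genes every MCF10.AT1-R value exceeded every MCF10.AT1 value, namely for SERPINB1, SERPINB2, SERPINB5, SERPINB7, SERPINB8 and SERPINB13. No member was lower on every MCF10.AT1-R array. Of all tested probe sets, 12.9% were higher without overlap and 13.8% lower. Probe sets with low or nearly invariant values had been removed, after which 7 of the 10 members were tested. Of these 7, SERPINB1, SERPINB2, SERPINB7 and SERPINB13 rose past an FDR of 5%, 3 did not pass and none fell, while 0.758% of the 51457 tested probe sets rose and 0.447% fell, 1.2% together. When the variance was allowed to follow the expression level, SERPINB5 and SERPINB8 passed as well, and 1.69% of all tested probe sets rose. With the low-expression filter alone SERPINB1 was lost, and 0.217% rose. The filter keeps genes that differ between the arrays, so nothing is read from the share of members among those tested. The median log2 change was 0.86 over the 10 members and -0.01 over all tested probe sets.

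**Figure D1:**
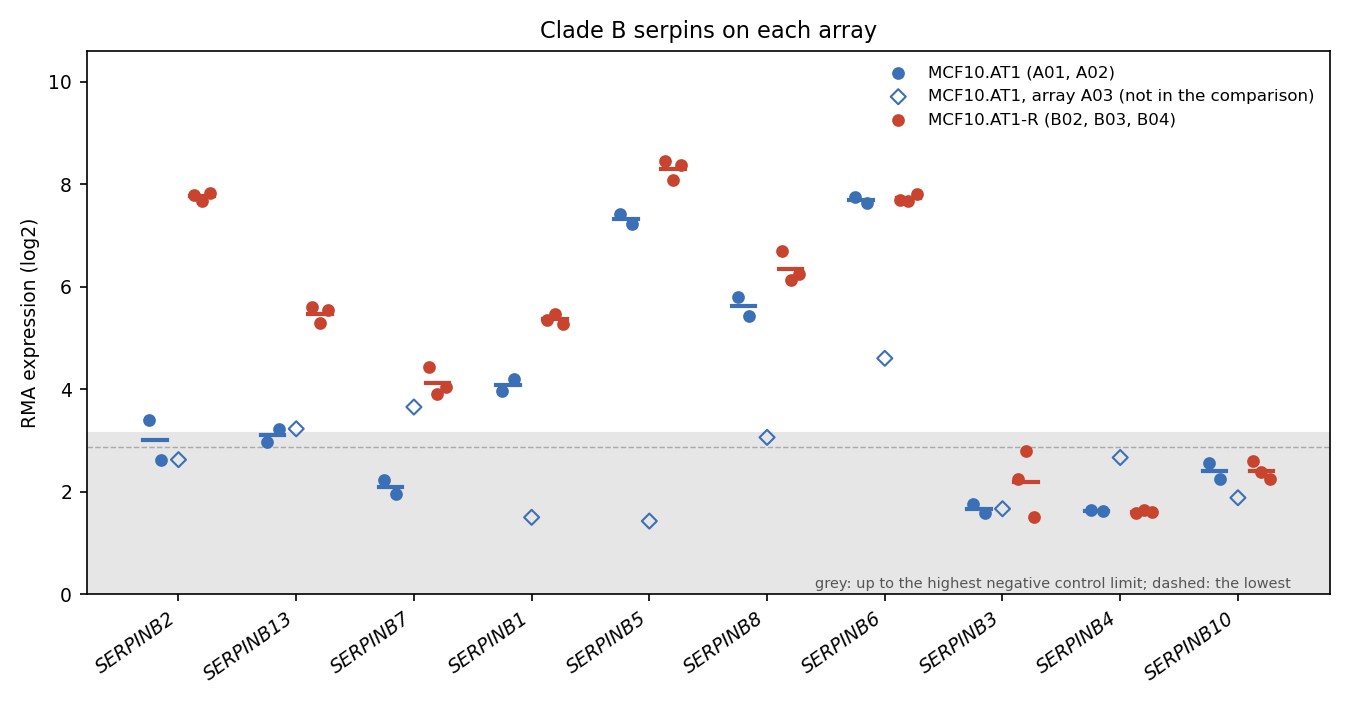
RMA expression (log2, vertical axis) of the 10 clade B serpins on each array. Filled blue points are the MCF10.AT1 arrays A01 and A02, red points the 3 MCF10.AT1-R arrays, open diamonds array A03, and short lines the means of the filled points. The grey area reaches to the highest of the arrays' negative control limits, 3.15, and the dashed line is the lowest, 2.88; SERPINB3, SERPINB4 and SERPINB10 stayed within it on every array.

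SERPINB2, also called plasminogen activator inhibitor 2, blocks urokinase. It read 3.40 on A01 and 2.61 on A02, and 7.79, 7.68 and 7.83 on B02, B03 and B04. Only A01 of the MCF10.AT1 arrays was above its background limit, whereas the MCF10.AT1-R arrays lay far above it and close together (SD 0.08, n = 3). The fitted log2 change was 4.76 (standard error 0.31, 27.1-fold, adjusted p = 3.6e-48 from limma), the second largest rise among all tested probe sets. That adjusted p rests on 1 common SD for all probe sets, and it was 0.00155 from limma with the low-expression filter alone. With values under each array's background limit raised to it, the log2 change was 4.55, or 23.4-fold.

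SERPINB13 (headpin), an inhibitor of the lysosomal cysteine protease cathepsin L, is found in keratinocytes and is often reduced in head and neck carcinoma. It was 2.98 on A01 and 3.23 on A02 against 5.60, 5.28 and 5.54 on B02, B03 and B04. The MCF10.AT1 values lay at the edge of the background, with A01 within it and A02 above it. The smallest gap between an MCF10.AT1-R array and an MCF10.AT1 array was 2.06, many times the SDs of 0.18 (n = 2) and 0.17 (n = 3). In limma it rose by 2.37 on the log2 scale, or 5.18-fold, with a standard error of 0.31 and an adjusted p of 2.28e-11. With values under each array's limit raised to it, the rise was 4.89-fold.

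SERPINB7 (megsin) is made in the upper epidermis, and its loss causes a form of palmoplantar keratosis. Its values were 2.23 and 1.96 on A01 and A02, both within background, and 4.43, 3.90 and 4.04 on B02, B03 and B04, all above it. The fit gave a log2 change of 2.03 with a standard error of 0.31 (limma, adjusted p = 4.34e-08). Since both MCF10.AT1 arrays were within background, SERPINB7 is given as at least 2.06-fold higher in MCF10.AT1-R. In a fit with the values raised to the limits, the log2 change of 1.04 did not pass (adjusted p = 0.0904 from limma).

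SERPINB1, an inhibitor of neutrophil elastase and related leukocyte proteases that epithelial cells also make, was the only chromosome 6 member that rose. It read 3.97 and 4.19 on A01 and A02 and 5.35, 5.47 and 5.27 on B02, B03 and B04, above background throughout. In limma it rose 2.43-fold, by 1.28 on the log2 scale with a standard error of 0.31 (adjusted p = 0.00608). Its replicates were close, with SDs of 0.16 (n = 2) and 0.10 (n = 3). With 1 MCF10.AT1 array the call was lost (adjusted p = 0.295 without A01 and 0.104 without A02, from limma), as it was with the low-expression filter alone (0.059).

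SERPINB5 (maspin), which has the serpin fold but does not inhibit proteases, was above background on all 5 arrays. It read 7.42 and 7.22 on A01 and A02 and 8.44, 8.09 and 8.38 on B02, B03 and B04. The MCF10.AT1-R arrays were all higher, by at least 0.67, and the log2 change was 0.99 (95% interval 0.37 to 1.60, 1.98-fold). In limma this missed FDR 5% with an adjusted p of 0.0958, and with the variance trend it passed (7.56e-10), so the call depends on the variance model.

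SERPINB8, an inhibitor of the proprotein convertase furin, read 5.79 and 5.44 on A01 and A02 and 6.69, 6.12 and 6.25 on B02, B03 and B04. The lines did not overlap, although the gap between A01 and B03 was only 0.33. The log2 change of 0.74 (95% interval 0.13 to 1.35) did not pass (adjusted p = 0.398 from limma), and it did with the variance trend (adjusted p = 0.0295 from limma). FURIN itself was removed as nearly invariant, with a log2 mean of 6.01 in the sensitive line and 6.06 in the resistant line.

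SERPINB6, a widely expressed inhibitor of cathepsin G, was the member above background with overlapping lines. Its values were 7.74 and 7.64 on A01 and A02 and 7.69, 7.68 and 7.81 on B02, B03 and B04. Its low SD kept it out of the test, and in limma without a filter its log2 change was 0.04 (95% interval -0.38 to 0.45). The intervals of SERPINB5 (0.37 to 1.60) and SERPINB8 (0.13 to 1.35), from the filtered fit, overlapped it. Those of SERPINB1, SERPINB2, SERPINB7 and SERPINB13 lay above it. Whether the change of SERPINB6 differs from that of another member was not tested.

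SERPINB3 and SERPINB4, the squamous cell carcinoma antigens, inhibit cysteine cathepsins and chymotrypsin-like proteases respectively. SERPINB3 was 1.75 and 1.58 on A01 and A02 and 2.25, 2.79 and 1.51 on B02, B03 and B04, within background on all 5. SERPINB4 lay between 1.59 and 1.65 on the 5 arrays. No fold is given for either, and a transcript below this limit would not have been seen. The promoters of these neighbouring genes differ at 3 of 250 bases, and probes for such close copies may respond to both transcripts.

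SERPINB10 (bomapin), which is made by blood-forming cells, was also within background on all 5 arrays, at 2.57 and 2.26 on A01 and A02 and 2.60, 2.38 and 2.26 on B02, B03 and B04. SERPINB9, the inhibitor of granzyme B, lay between 1.95 and 2.54. SERPINB11 lay between 0.90 and 1.67 and SERPINB12 between 2.03 and 2.78. Thus 7 of the 13 clade B genes exceeded background on every MCF10.AT1-R array, and all of these are among the 10 members.

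**Figure D2:**
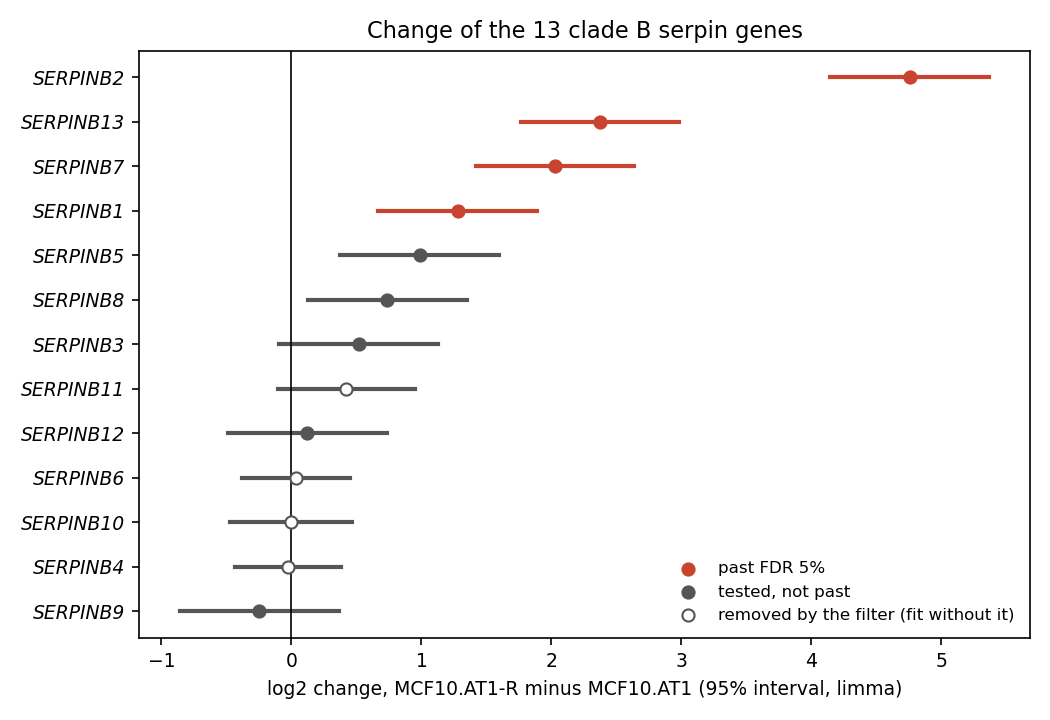
Log2 change of the 13 clade B serpin genes (horizontal axis, MCF10.AT1-R minus MCF10.AT1, points) with the 95% interval from limma (lines). Red marks genes past FDR 5%, filled grey genes tested and not past it, and open points genes removed by the filter, whose values come from the fit without it; SERPINB2 lies at 4.76 and the intervals of SERPINB3, SERPINB4, SERPINB6, SERPINB9, SERPINB10, SERPINB11 and SERPINB12 include 0.

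The chromosome 18 cluster holds 10 of the 13 clade B genes and 8 of the 10 members. In the RefSeq order they follow each other as SERPINB5, SERPINB12, SERPINB13, SERPINB4, SERPINB3, SERPINB11, SERPINB7, SERPINB2, SERPINB10 and SERPINB8, with HMSD before the last. The genes that were higher without overlap (SERPINB5, SERPINB13, SERPINB7, SERPINB2 and SERPINB8) were interspersed with genes within background (SERPINB12, SERPINB4, SERPINB3, SERPINB11, SERPINB10 and HMSD). SERPINB7 and SERPINB2 were the only adjacent pair that rose. Of the 8 neighbouring genes listed for this cluster, 6 were tested and none passed the FDR threshold in either direction. HMSD and CDH19, within background on all 5 arrays, were not tested. The median log2 change of the 8 neighbours was -0.09. The nearest on the SERPINB5 side, VPS4B, a factor of endosomal sorting, was higher on all 3 MCF10.AT1-R arrays by 0.54 on the log2 scale, and did not pass in limma (adjusted p = 0.691). PHLPP1 and CDH7 overlapped, with log2 changes of 0.33 and 0.37, and CDH7 exceeded background on only 1 array. KDSR, an enzyme of ceramide synthesis, and BCL2, an inhibitor of apoptosis, overlapped between the lines, with log2 changes of -0.24 and -0.30.

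On chromosome 6 the order is SERPINB1, SERPINB9 and SERPINB6, with MYLK4 and WRNIP1 before and NQO2, RIPK1 and BPHL after. SERPINB1 rose while SERPINB9 was within background and SERPINB6 overlapped. Of the 10 neighbours listed here 8 were tested and none passed, and the median log2 change of the 10 was -0.11. TUBB2A, higher without overlap by 0.56 on the log2 scale, passed with the variance trend (adjusted p = 0.0105 from limma). WRNIP1 and TUBB2B had log2 changes of -0.57 and 0.62. NQO2, a quinone reductase, was lower without overlap, at 4.12 ± 0.61 (SD, n = 3) in MCF10.AT1-R against 4.95 ± 0.32 (SD, n = 2), and did not pass (adjusted p = 0.269 from limma).

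**Figure D3:**
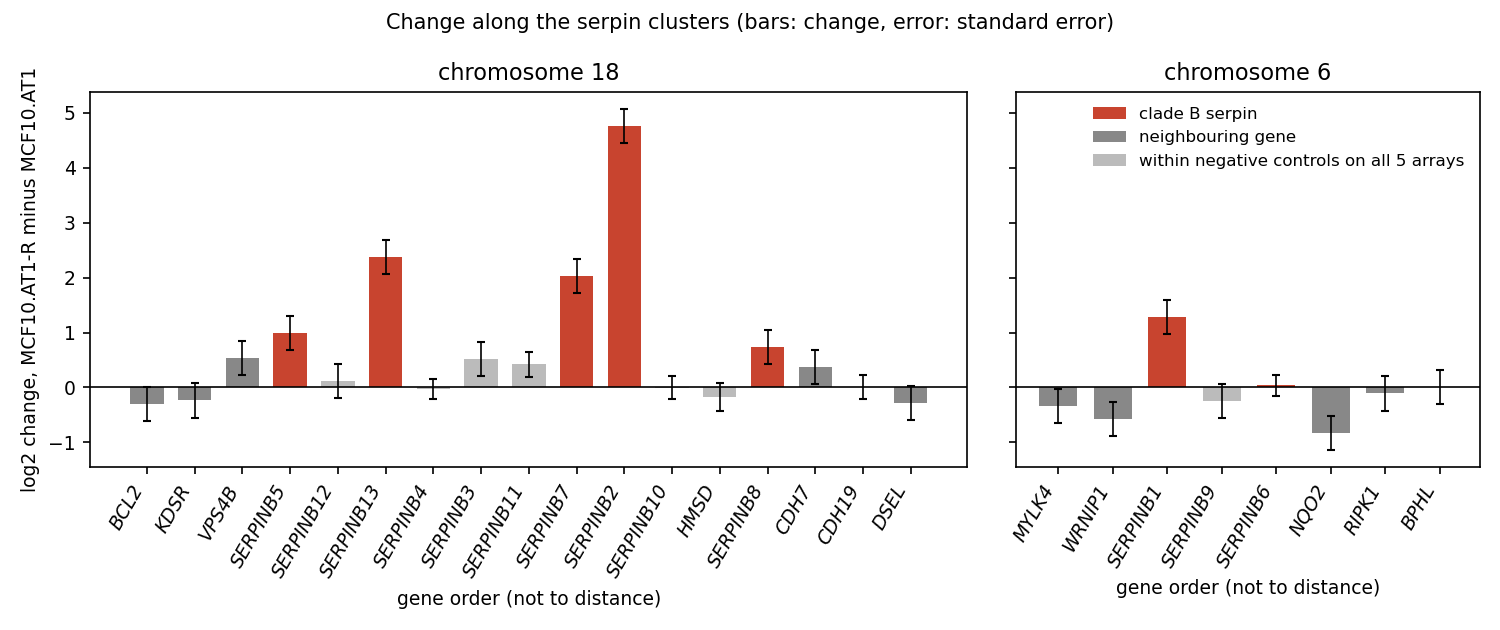
Log2 change (vertical axis, MCF10.AT1-R minus MCF10.AT1) of clade B serpins and neighbouring genes, placed in RefSeq order along chromosome 18 and chromosome 6 and not to distance. Bars are fitted changes and whiskers standard errors; red bars are clade B serpins, dark grey bars neighbours and light grey bars genes within the negative controls on all 5 arrays. The 5 red bars of chromosome 18 run from 0.74 (SERPINB8) to 4.76 (SERPINB2), and those of SERPINB5 and SERPINB8 did not pass FDR 5%.

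Of 15 proteases known to be inhibited by 1 or more clade B serpins, 12 were tested. CTSV and CTSS, cysteine cathepsins of lysosomes, rose past FDR 5%, and none fell, against 0.758% and 0.447% of all tested probe sets. CTSV read 4.13 and 4.10 on A01 and A02 and between 6.80 and 7.03 on the MCF10.AT1-R arrays, and limma put the rise at 2.83 on the log2 scale (adjusted p = 1.79e-16). CTSS was within background on both MCF10.AT1 arrays and at least 1.65-fold higher in MCF10.AT1-R (adjusted p = 0.00905 from limma), a call that was lost with the low-expression filter alone (0.168). CTSL, the cathepsin that SERPINB13 inhibits, went from 6.34 ± 0.08 (SD, n = 2) to 5.98 ± 0.07 (SD, n = 3) in MCF10.AT1-R, without overlap, and did not pass (log2 change -0.36, adjusted p = 0.828 from limma). The leukocyte proteases ELANE and PRTN3 overlapped between the lines, as did CMA1, which was within background. CTSG, the leukocyte protease that SERPINB6 inhibits, read 3.24 and 3.06 on A01 and A02, against background limits of 3.14 and 3.03. It was within background at 2.56, 2.30 and 2.00 on B02, B03 and B04. It did not pass (log2 change -0.86, adjusted p = 0.218 from limma), and with values under each array's limit raised to it the log2 change was -0.22. KLK8, a skin protease that SERPINB6 also inhibits, and GZMB, the granzyme that SERPINB9 inhibits, were higher without overlap by 0.90 and 0.43 on the log2 scale and did not pass in limma (adjusted p = 0.17 and 0.795). KLK8 passed with the variance trend (adjusted p = 0.00261 from limma) and GZMB did not (0.67). The median log2 change of the 15 was 0.22.

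SERPINB2 acts on the urokinase system, and none of the other genes listed for it passed FDR 5%. With the variance trend PLAU and PLAUR did (adjusted p = 0.000668 and 0.000589 from limma). PLAU, urokinase itself, read 5.87 on both A01 and A02 and averaged 6.77 ± 0.20 (SD, n = 3) in MCF10.AT1-R, and the log2 change of 0.90 did not pass in limma (adjusted p = 0.174). PLAUR, its receptor, was higher by 0.62 on the log2 scale, which did not pass either (limma, adjusted p = 0.596). PLAT, the tissue-type activator, was lower on all 3 MCF10.AT1-R arrays (log2 change -0.71), and did not pass in limma (adjusted p = 0.438).

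Of 21 genes of other serpin clades, 11 were tested and 13 were within background on all 5 arrays. SERPINE2, an inhibitor of thrombin and urokinase, fell past FDR 5%, from 6.93 ± 0.04 (SD, n = 2) to 5.20 ± 0.38 (SD, n = 3). Its log2 change was -1.73 (adjusted p = 9.82e-06 from limma), and with the low-expression filter alone it did not pass (adjusted p = 0.0615). None of the 21 rose, 6 were higher without overlap and 3 were lower, against 12.9% and 13.8% of all tested probe sets. Some of these genes were not tested. SERPINA12, SERPINC1 and SERPING1 among the higher and SERPIND1 among the lower were within background on all 5 arrays. SERPINI1 and SERPINF1 had the next largest log2 changes, 0.85 and 0.70, and did not pass in limma (adjusted p = 0.244 and 0.467). SERPINF1 was within background on both MCF10.AT1 arrays and is given as at least 1.1-fold higher in MCF10.AT1-R. The median log2 change over the 21 was 0.06.

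Among 16 epithelial protease inhibitors that are not serpins, 6 rose past FDR 5%, none fell and 7 of the tested did not pass. Over all tested probe sets 0.758% rose and 0.447% fell. The 6 were PI3 (elafin) and SLPI, which block elastase, CSTA and CST6, which are cystatins directed at cysteine cathepsins, SPINT1, an inhibitor of the membrane protease matriptase, and A2ML1, a protease inhibitor of the epidermis. CST6 rose by a log2 change of 2.14, PI3 by 2.13, SLPI by 1.98 and CSTA by 1.76. The call of SPINT1 (1.21) was lost with the low-expression filter alone (adjusted p = 0.0731 from limma), as was that of A2ML1 (adjusted p = 0.0683), which was within background on both MCF10.AT1 arrays and at least 2.71-fold higher in MCF10.AT1-R. SPINT2 and WFDC2, higher without overlap by 0.85 and 1.00 on the log2 scale, passed with the variance trend (adjusted p = 3.9e-10 and 0.0173 from limma). The median log2 change of the 16 was 0.69.

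**Figure D4:**
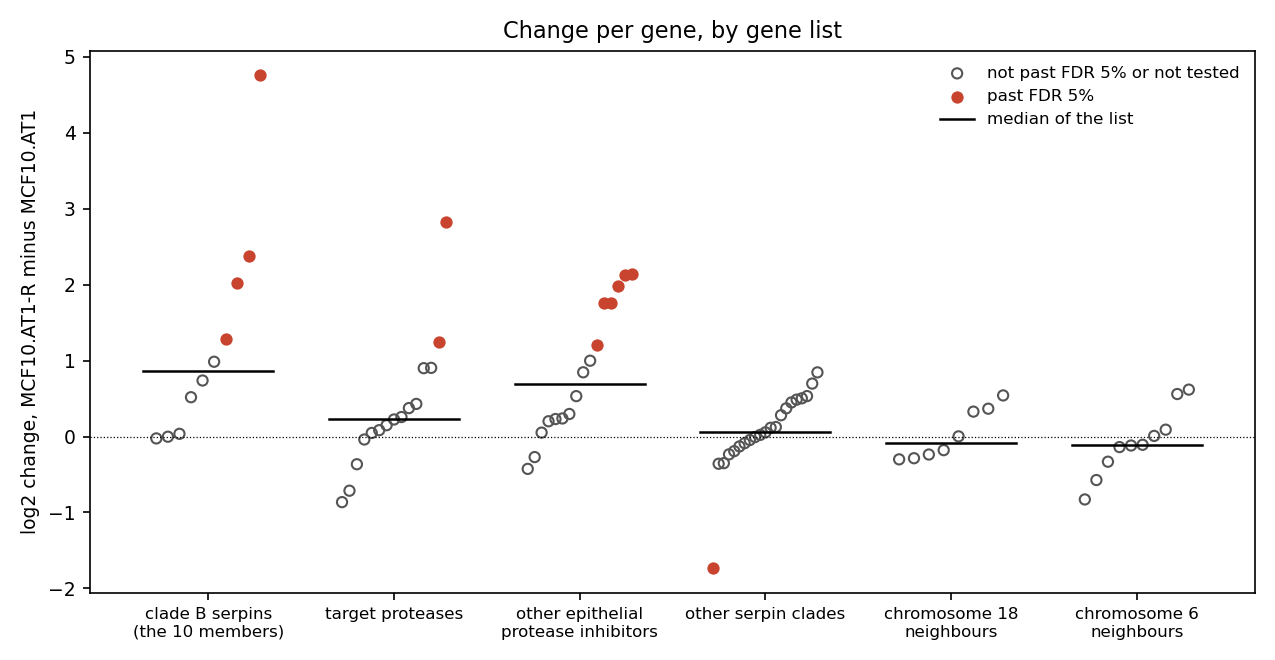
Log2 change (vertical axis, MCF10.AT1-R minus MCF10.AT1) of each gene of 6 lists, sorted within a list. Red points passed FDR 5%, open points did not pass or were not tested, and black lines are medians (0.86 for the clade B members, 0.22 for target proteases, 0.69 for other epithelial inhibitors, 0.06 for other serpin clades, -0.09 and -0.11 for the neighbours on chromosomes 18 and 6).

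Some markers of squamous and mammary epithelium were also higher in MCF10.AT1-R. Of the 8 markers listed for mammary epithelium, which other epithelial cells share, 5 rose (KRT5, KRT14, KRT17, TP63 and CDH1). All 8 were higher without overlap. The shares over all tested probe sets were 0.758% for a rise past FDR 5% and 12.9% for higher without overlap. The summed log2 value of the 8 was 53.63 to 54.90 on the MCF10.AT1 arrays and 67.24 to 68.01 on the MCF10.AT1-R arrays. Of 9 markers of cornifying keratinocytes, KRT1, IVL and CDSN rose, the first by a log2 change of 1.10, involucrin by 3.23 and CDSN by 1.14, and with the low-expression filter alone KRT1 and CDSN did not pass (adjusted p = 0.0966 and 0.199 from limma). KRT10 and KRT2 were higher without overlap and did not pass, and CALML5, LOR, FLG and KRTDAP overlapped between the lines. Their summed log2 value was 28.88 to 28.91 in MCF10.AT1 and 32.83 to 36.56 in MCF10.AT1-R. FLG and KRTDAP were within background on all 5 arrays, and LOR exceeded it on 1 MCF10.AT1-R array. The part of squamous differentiation, or of another cell type, in the rise of the serpins was not tested, and in bulk RNA more cells of a type and more RNA per cell cannot be told apart.

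Of 9 white blood cell markers none rose and CD14 fell (log2 change -1.12), a call lost with the low-expression filter alone (adjusted p = 0.115 from limma), with summed log2 values of 29.27 to 30.33 in MCF10.AT1 and 29.38 to 32.08 in MCF10.AT1-R. Of 7 fibroblast markers none rose and DCN fell, with sums of 30.17 to 30.67 and 27.57 to 28.70.

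On A03 some members departed from the other MCF10.AT1 arrays and others did not, and the same held for other lists. The 8 mammary epithelial markers summed to 28.32 on A03 against 53.63 to 54.90 on A01 and A02. The chromosome 18 neighbours summed to 22.04 against 34.21 to 35.64, and the white blood cell markers to 28.3 against 29.27 to 30.33. Whether the members differ from the rest of that array was not tested. SERPINB5 read 1.43, SERPINB1 1.50, SERPINB8 3.06, SERPINB10 1.88 and SERPINB6 4.60, each below every other array. SERPINB2 at 2.63 and SERPINB13 at 3.23 lay close to A02, and SERPINB3 at 1.67 lay between A01 and A02. SERPINB4 at 2.67 and SERPINB7 at 3.65 read higher than on A01 and A02. Of the 10 members, 3 (SERPINB6, SERPINB7 and SERPINB13) were above the limit of A03. With A03 counted as MCF10.AT1, SERPINB2 alone passed FDR 5% (log2 change 4.89, adjusted p = 0.0051 from limma), against 0.0447% of all probe sets tested, and SERPINB13 did not (adjusted p = 0.0663).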

How the data were processed

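Clariom D arrays measured total RNA of both lines, 3 arrays per line. The authors deposited log2 values, 1 per probe set and array, which they made from the raw intensities with RMA in the Bioconductor packages affy and oligo. The table holds 138745 probe sets for 6 arrays, of which 2995 are controls. Its column names carry no replicate number, and the line of each array was read from the study's plot of array names. RMA scales the arrays to 1 distribution, so values are relative within this set. The genome build was not given in the sources used here.

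The lines were compared over 5 arrays, without A03. Probe sets with a mean above the median (1.88) and an SD above the lowest 25% (0.18) entered limma 3.58.1 (lmFit, then eBayes, in R 4.3.3). The fit was first checked on simulated data for recovery of added changes, and no limit was set there on false calls. Benjamini-Hochberg adjustment covered all 51457 probe sets, with a threshold of FDR 5%. After the filter limma used 1 SD of 0.34 for every probe set. Members it removed were looked up in a fit without filters. Biological replicates are as labelled, and the number of arrays limits precision.

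Genes named are the clade B serpins and, in each further list of genes, those past FDR 5% or, where fewer than 3 passed, those with the largest change up to 3 genes, by the probe set with the highest mean. Of the cell type markers, those past FDR 5% are given. Other list members given with values were chosen after their values were seen, for their place beside a serpin or for passing with the variance trend. The lists were other serpin clades, target proteases, the urokinase system, other epithelial protease inhibitors, chromosomal neighbours and markers of 4 cell types. Some genes of these lists are not reported here and were left out of the counts. The members and lists were chosen with earlier results of these data known. Alternatives changed the arrays, variance model, filter, normalization, probe set summary and background limit. Since each member has 1 probe set, the probe set summary could not change the values of the members. Promoters and gene order came from RefSeq tables (GRCh38.p14).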

Additional observations from a re-analysis of the deposited data

Results flagged for a closer look

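SERPINB7 read 3.65 on A03, an array that entered only the alternative with A03 added, which is above that array's negative control limit of 3.15. On A01 and A02, the other MCF10.AT1 arrays, it was within background at 2.23 and 1.96, and on the MCF10.AT1-R arrays it lay between 3.90 and 4.43. Hybridization controls on A03 averaged 5.99, against 10.35 to 11.33 on the other arrays, and the part of this in the reading of SERPINB7 was not tested.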

How the results depend on the processing

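SERPINB2 passed FDR 5% in limma in all 16 alternatives, with log2 changes of 4.36 to 5.15, SERPINB13 in 15, SERPINB7 in 14 and SERPINB1 in 11. The exceptions were, for SERPINB13, A03 added (2.33), for SERPINB7, A03 added (1.51) and the raised background limit, and for SERPINB1, A03 added (2.14), A01 or A02 left out, the low-expression filter alone (adjusted p = 0.059) and no filter (adjusted p = 0.074). SERPINB5 passed in 2 alternatives, both with the variance trend, and SERPINB8 in 1. SERPINB3 reversed to -0.15 with values raised to the limit, a value set by the arrays' limits, since it was within background throughout. Among the 16 alternatives, the mean of all probe sets of a symbol could not differ from the main fit for any member. Each member has 1 probe set, so that run adds nothing to these counts.

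The number of members past the threshold, 4, was 1 with A03 added, 3 or 4 with an array left out, 3 with the low-expression filter alone, with no filter and with the raised limit, and 6 with the variance trend. The median log2 change of the 10 members, 0.86, lay between 0.72 and 1.00 with an array left out, and it was 1.55 with A03 added. It stayed positive in every alternative. Changes of the variance model or of the filter leave the log2 change of each member as it was, so those alternatives could not move this median. Of all tested probe sets 1.2% were called in either direction, against 0.0447% with A03 added, 0.53% to 1.16% with an array left out, 2.68% with the variance trend, 0.268% with the low-expression filter alone, 1.6% with that filter and the trend, and 0.13% with no filter. Leaving out A01 or A02 leaves 1 MCF10.AT1 array, which is then assumed to vary like the others. No paired analysis was possible because the columns carry no replicate numbers.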
